A study of Rattus norvegicus with 2 samples.

Results

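DBP peaks on rat chromosomes 6, 8, 9 and 15 are described here. They are 231 of the 2234 regions, or 10.3%, in a list of binding sites of DBP (D-site albumin promoter binding protein) from INS1 832/13 cells, a clone of a rat insulinoma line that stands in for pancreatic beta cells. These autosomes were chosen by their low number of peaks per Mb, and all of their listed regions were taken: 79 on chromosome 6, 64 on chromosome 8, 57 on chromosome 9 and 31 on chromosome 15. The study held 2 libraries, a DBP precipitate made with an antibody and an input, both from this 1 clonal line, and the labels name no treatment, time or genotype. Only the peak list of the DBP library was analysed, on the rn6 build.

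DBP belongs to the PAR bZIP family of transcription factors, with TEF and HLF, which bind D-box elements in DNA as dimers. Its own gene is driven by the circadian clock, and NFIL3, a repressor, binds the same elements. In the beta cell the clock is known to tune insulin secretion, and DBP is one of its output factors. A peak in a ChIP-seq list is an interval in which reads from the precipitated DNA were enriched, so it marks crosslinked occupancy somewhere within its width. The list gave chromosome, start, end and name of each peak and no height or read count, and read depth is therefore unknown. Genes, promoters and D-box letters at the peaks were not analysed, since neither sequence nor annotation of rn6 was used here. With 1 library there is no replicate error and no test, and every comparison below describes this list alone. The label of the line as a beta cell was not checked, since a peak list holds no marker levels.

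The 4 autosomes together covered 18.7% of the length counted and held 10.3% of the peaks. This is the measure they were chosen by, so it is a description. Their density was 0.454 peaks per Mb (95% exact Poisson interval 0.397 to 0.516), against 0.904 (0.864 to 0.944) on the other 17 chromosomes. Chromosome 15 had 0.279 peaks per Mb (0.190 to 0.396), chromosome 8 had 0.482 (0.371 to 0.615), chromosome 9 had 0.484 (0.367 to 0.627) and chromosome 6 had 0.536 (0.424 to 0.668). Only chromosome X, at 0.264 peaks per Mb, was sparser than these 4, and the next denser were chromosome 13 at 0.632 and chromosome 5 at 0.657. The intervals of chromosomes 6, 8 and 9 overlapped each other and that of chromosome 13, so their order within this range is not resolved by the counts. Such intervals cover counting error only and treat peaks as independent. Length was counted to the end of the last peak, so sequence beyond it would lower each density.

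The sparseness took a different shape on each chromosome. Chromosome 6 had a thinly filled middle with more peaks on both sides of it. Chromosome 8 had no peak at its start and near-equal counts in each part of its length. Chromosome 9 had a dense stretch near its start, and chromosome 15 had few peaks in its later part, by coordinate. Cut into 3 equal parts of its own length, chromosome 6 held 32, 10 and 37 peaks, chromosome 8 held 20, 22 and 22, chromosome 9 held 23, 17 and 17, and chromosome 15 held 16, 10 and 5. The median peak midpoint lay at 49.1% of the length on chromosome 6, 51.9% on chromosome 8, 40.9% on chromosome 9 and 33.1% on chromosome 15. On the other 17 chromosomes this position ran from 24.0% on chromosome 17 to 70.2% on chromosome 3.

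**Figure D1:**
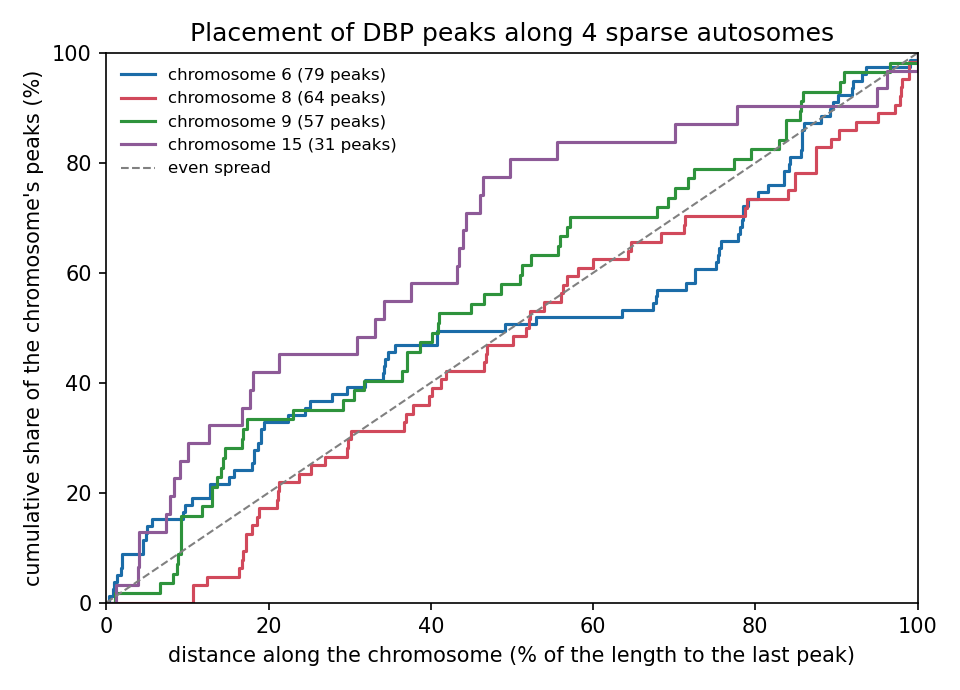
Cumulative share of the peaks of each chromosome (y axis, %) against distance along it (x axis, % of the length to the last peak), with an even spread as a dashed diagonal. Chromosome 6 is flat across its middle, chromosome 8 starts late and then runs near the diagonal, chromosome 9 rises early, and chromosome 15 has 25 of 31 peaks in the first 50% of its length.

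Chromosome 6 had its fuller parts on both sides of a sparse middle. Its first peak, chr6:435491-435631, was 141 bp wide and its last, chr6:147450764-147450894, was 131 bp wide. The first 10 Mb held 12 peaks, and the stretches from 110 to 120 Mb and from 120 to 130 Mb held 11 each. These counts exceeded the 9 peaks per 10 Mb that would place a bin above the mean density of the whole list, 0.819 per Mb. A further bin, from 20 to 30 Mb, held 9 peaks. At least 9 peaks were held by 97 of 212 whole 10 Mb bins (45.8%) on the other 17 chromosomes. The 4 autosomes together had 6 of 49 such bins (12.2%), and chromosome 6 alone had 4 of 14. The densest 5 Mb window, picked for its count, held 9 peaks from 123090995 to 126877607. Towards the far end peaks were fewer again, with 7 from 130 to 140 Mb and 2 beyond, and a stretch of 8.004 Mb without a peak, the third longest here, ran from 138020061 to 146024314.

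Between the fuller parts, chromosome 6 was nearly empty for 47.0 Mb. From 52441757 to 99398881 it held 5 peaks, and this run made up 31.8% of the length. The 5 were a close pair, chr6:60150938-60151130 (193 bp) and chr6:60151471-60151742 (272 bp), and the single peaks chr6:72465714-72465884 (171 bp), chr6:78173531-78173832 (302 bp) and chr6:93809993-93810237 (245 bp). Its longest stretch with no peak spanned 15.6 Mb, from 78173833 to 93809992, and the second 12.3 Mb, from 60151743 to 72465713. The bin from 80 to 90 Mb was the only whole 10 Mb bin of chromosome 6 with 0 peaks. Peaks at both edges of the longest stretch were wider than the chromosome's median of 178 bp.

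Chromosome 8 differed from the rest of the list in where it began. Its first peak, chr8:14229603-14229820, lay farther from the first base than that of any of the other 20 chromosomes. On the other 17 chromosomes the first peak started between 188673 on chromosome 2 and 10731556 on chromosome 19, with a median of 1325820. The last peak was chr8:132911018-132911305. After its late start, chromosome 8 held 8 peaks in 3.22 Mb, from 21767027 to 24989411, which was its fullest 5 Mb window and was picked for that count. The 10 Mb bin that contains this window held 11 peaks, and no other 10 Mb bin held more than 7.

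The longest stretch between peaks on chromosome 8 spanned 9.82 Mb, from 94874452 to 104698108, bounded by peaks of 124 and 204 bp. The next longest spanned 8.72 Mb, from 40080830 to 48801936, bounded by peaks of 153 and 312 bp. The 14.2 Mb before the first peak were thus longer than any stretch inside it. From 85925908 to 111687445, a run of 25.8 Mb, it held 5 peaks, which was 19.4% of its length.

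On chromosome 9, peaks were concentrated near the start. The bin from 10 to 20 Mb held 15 peaks, or 1.5 per Mb, which no other 10 Mb bin of the 4 autosomes reached. Of these 15, 4 lay within 1960 bp and another 2 lay 328 bp apart, so the count leans on very close peaks. On the other 17 chromosomes the fullest whole 10 Mb bin held from 10 to 44 peaks, with a median of 16. Every other bin of chromosome 9 held between 1 and 7 peaks. Its densest 1 Mb window, picked for its count, held 6 peaks in 0.510 Mb, from 10293331 to 10803098, among them the 4 within 1960 bp. The same window contained the widest of all 231 peaks, chr9:10293331-10293991, at 661 bp. The next widest peaks of the chromosome, chr9:16862713-16863264 (552 bp) and chr9:19748601-19749119 (519 bp), lay in the same 10 Mb bin. The first peak was chr9:1198425-1198577 (153 bp) and the last chr9:117709524-117709843 (320 bp).

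Long empty stretches on chromosome 9 fell on both sides of that dense part and farther along. The longest spanned 12.6 Mb, from 67311350 to 79943948, between peaks of 147 and 352 bp. The second spanned 7.14 Mb, from 27131500 to 34274757, between peaks of 137 and 178 bp, and began directly after the isolated peak chr9:27131363-27131499. Together with the 6.72 Mb before that peak, it left 1 peak in the 13.9 Mb from 20410080 to 34274757. Even so, only 1 of 23 whole 5 Mb bins of chromosome 9 was empty (4.35%), against 37 of 434 (8.53%) on the other 17 chromosomes.

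Chromosome 15 had the fewest peaks of any chromosome, and they lay mainly at its lower coordinates. From its first peak, chr15:1268387-1268565 (179 bp), to 23619950 it held 14 of its 31 peaks. A further 10 lay from 34352447 to 51519431, 6 of them between 48030840 and 51519431. Only 6 peaks fell in the last 50% of the length. No 10 Mb bin held more than 7 peaks, the lowest such maximum of all 21 chromosomes, and 7 of its 22 whole 5 Mb bins (31.8%) were empty.

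In its later part, chromosome 15 held 2 peaks in 43.8 Mb, from 61692167 to 105519318, which was 39.5% of its length. These were chr15:77873827-77873971, of 145 bp, and chr15:86363870-86364175, of 306 bp. They separated stretches of 16.2, 8.49 and 19.2 Mb, and the last of these, from 86364176 to 105519318, was the longest on the 4 autosomes. Beyond it lay chr15:105519319-105519717 (399 bp), chr15:106914856-106914964 (109 bp) and the last peak, chr15:111075948-111076190 (243 bp). Another long stretch, 10.7 Mb from 23619951 to 34352446, divided the peaks at lower coordinates.

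Each longest stretch was set against the chromosome's own number of peaks. As a reference, the longest spacing was calculated for the same number of independent, uniformly placed points between the first and last peak, as a closed-form mean and SD. On chromosome 6 the reference was 9.31 ± 2.15 Mb (SD of the calculated distribution), and the observed 15.6 Mb was 1.68 times it. On chromosome 8 it was 8.91 ± 2.11 Mb, and the observed 9.82 Mb was 1.10 times it. Chromosome 9 had a reference of 9.59 ± 2.30 Mb and chromosome 15 one of 14.6 ± 3.74 Mb, and their observed stretches were 1.32 and 1.31 times these. The observed value lay within 1 SD of the reference on chromosome 8 and beyond it on the other 3.

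Seen this way, chromosomes 8, 9 and 15 did not stand out by their longest stretch. Over all 21 chromosomes the ratio of observed to reference ran from 0.890 on chromosome 11 to 4.73 on chromosome 3, with a median of 1.46, and 20 of 21 ratios exceeded 1. Chromosome 6 ranked 6th, chromosome 9 ranked 16th, chromosome 15 ranked 17th and chromosome 8 ranked 20th from the highest. On chromosomes 13 and 5, the next denser, the ratios were 2.85 and 2.84. The reference takes no account of assembly gaps, mappability, gene content or copy number, whose part was not tested.

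**Figure D2:**
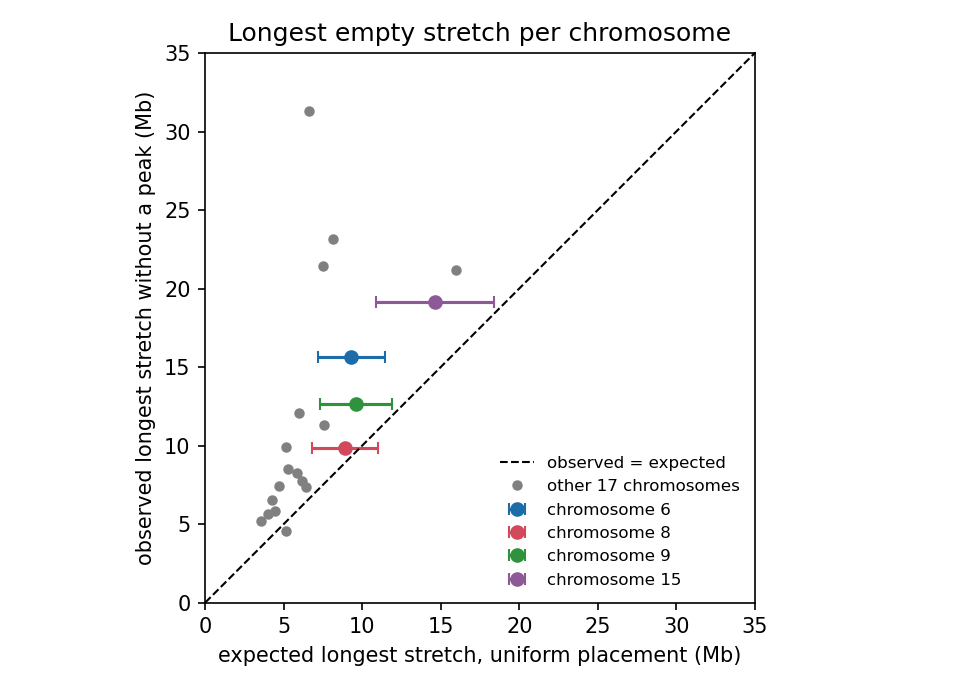
Observed longest stretch without a peak (y axis, Mb) against the closed-form mean for uniform placement on the same chromosome (x axis, Mb), 1 point per chromosome, with horizontal bars of 1 SD of the calculated distribution for the 4 autosomes and a dashed line of equality. Chromosome 8 lies close to the line (9.82 against 8.91 Mb), chromosomes 9 and 15 lie moderately above it, and chromosome 6 lies farther above it (15.6 against 9.31 Mb).

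Stretches over 5 Mb between neighbouring peaks numbered 8 on chromosome 6, 6 on chromosome 8, 8 on chromosome 9 and 6 on chromosome 15. These 28 were 12.3% of the 227 neighbouring pairs on the 4 autosomes, against 59 of 1986 (2.97%) on the other 17 chromosomes. A lower density by itself gives more such stretches: the closed form for uniform placement gave 22.6 on the 4 autosomes and 31.3 on the others, so that the observed counts were 1.24 and 1.88 times the reference. For chromosomes 6, 8, 9 and 15 singly, the reference was 5.43, 4.37, 5.02 and 7.77, and chromosome 15 was the only one of the 4 with fewer than it. The 5 Mb limit is fewer mean spacings where peaks are sparse, with means of 3.66 Mb on chromosome 15 and 0.800 Mb on chromosome 1. These ratios therefore do not compare evenness between chromosomes of unlike density. The stretches covered 45.6% of the length of the 4 autosomes and 22.3% of that of the others. Outside such stretches, and without the start of chromosome 8, the density of the 4 autosomes was 0.880 peaks per Mb, against 1.17 for the others treated in the same way. It was 0.971 on chromosome 6, 0.933 on chromosome 9, 0.838 on chromosome 8 and 0.707 on chromosome 15. These values still carry the low density that chose the chromosomes. They are not particular to the set, since chromosome 13 stood at 0.832, below chromosomes 6, 8 and 9.

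Typical distances between neighbours gave a similar order. The median gap was 0.720 Mb on chromosome 6 (quartiles 0.209 and 2.94 Mb), 1.09 Mb on chromosome 8 (0.281 and 2.73 Mb), 1.26 Mb on chromosome 9 (0.329 and 2.57 Mb) and 2.21 Mb on chromosome 15 (0.493 and 4.06 Mb). The other 17 chromosomes had medians between 0.277 and 1.39 Mb. Chromosome 15 thus had the longest median gap of the 21, longer than that of chromosome X, although chromosome X had fewer peaks per Mb. On chromosome 6 the median gap was below those of the denser chromosomes 2, 5 and 13 (0.813, 0.871 and 0.808 Mb). Its mean spacing was 1.88 Mb, the same as that of chromosome 8, but it came from many short and a few very long gaps.

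Evenness of spacing was compared by the coefficient of variation, the SD of the spacings over their mean, which is close to 1 for independent uniform points. It was 1.15 on chromosome 8, 1.20 on chromosome 9, 1.27 on chromosome 15 and 1.45 on chromosome 6. All 21 chromosomes exceeded 1, from 1.08 on chromosome 11 to 2.40 on chromosome 3. Chromosomes 8 and 9 thus had the lowest values after chromosome 11, though both exceeded 1. For counts in 5 Mb bins, the ratio of variance to mean was 1.23 on chromosome 15, the lowest of all 21, 1.36 on chromosome 8, 1.49 on chromosome 9 and 1.86 on chromosome 6. This ratio falls with the mean count, so its low value on chromosome 15 does not by itself show evenness.

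**Figure D3:**
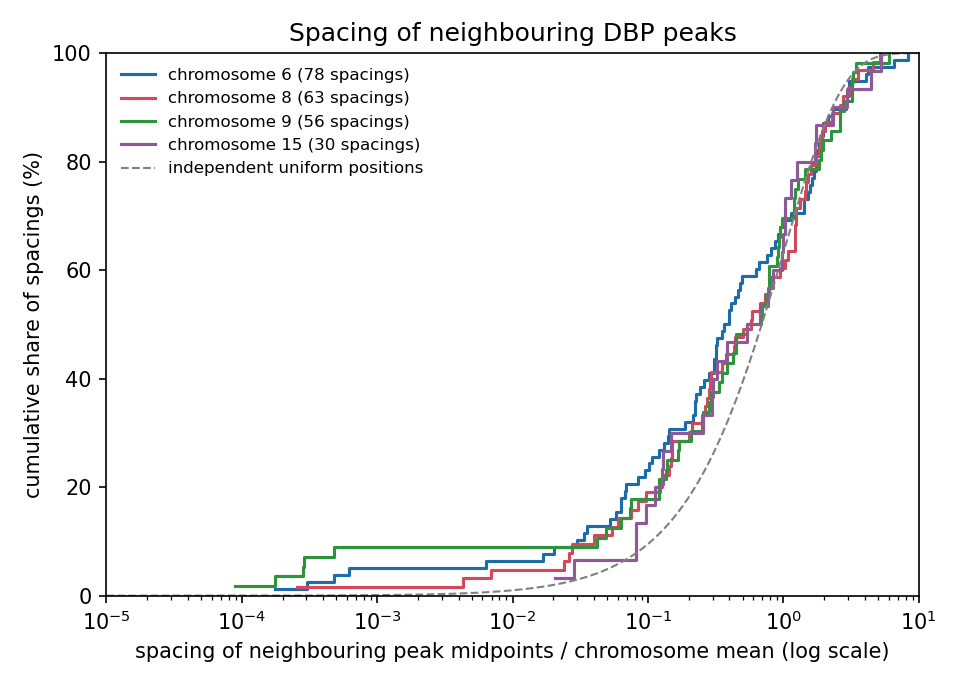
Cumulative share (y axis, %) of the spacings between neighbouring peak midpoints, each divided by the mean spacing of its chromosome (x axis, log scale), with the curve for independent uniform positions dashed. From about 0.1 to 0.5 of the mean spacing all 4 chromosomes lie above the dashed curve, chromosome 9 has 5 spacings far to the left that are its pairs under 10 kb, and chromosome 15 has none there.

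Neighbours under 100 kb apart made up a smaller share of pairs on the 4 autosomes than elsewhere. Under 100 kb, measured edge to edge, lay 25 of 227 neighbouring pairs, or 11.0% (exact Clopper-Pearson interval 7.26 to 15.8%), against 394 of 1986, or 19.8% (18.1 to 21.7%), on the other 17 chromosomes. Independent uniform placement at each chromosome's own density would give 10.6 such pairs on the 4 autosomes and 186.4 on the others by the closed form. The observed counts were 2.37 and 2.11 times these. With peaks within 10 kb joined, they were 14 pairs against 9.52, or 1.47 times, and 263 against 162.9, or 1.61 times. Joining removes every pair under 10 kb, while the reference still counts all spacings under 100 kb. The fall from 2.37 and 2.11 times is therefore partly built in. The share on the 4 autosomes joined within 10 kb, 6.48% (3.59 to 10.6%), had an interval that included the reference of 4.41%. With only peaks within 500 bp joined, the share was 8.18% (4.92 to 12.6%), an interval above the reference of 4.50%. The lower share within 10 kb is partly built in as well, so its interval cannot decide whether an excess was left. All these intervals treat pairs as independent, although pairs within 1 group share peaks. The lower share of close pairs came with the lower density that chose these chromosomes, but the 2 did not go together on every chromosome. Among the other 17 the share ran from 8.51% on chromosome 14, at 0.823 peaks per Mb, to 27.8% on chromosome 10, with a median of 19.0%. The sparsest, chromosome X, had 20.0%. The next denser, chromosomes 13 and 5, had 11.3% and 11.5%, so a low share is not particular to the 4.

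Counts on the single chromosomes were small. Pairs under 100 kb numbered 11 of 78 on chromosome 6 (14.1%), 7 of 63 on chromosome 8 (11.1%), 6 of 56 on chromosome 9 (10.7%) and 1 of 30 on chromosome 15 (3.33%), where uniform placement would give 3.98, 3.21, 2.58 and 0.782. Only on chromosome 6 did the interval of the share, 7.26 to 23.8%, lie above the reference of 5.10%. On chromosome 8 (4.59 to 21.6%), chromosome 9 (4.03 to 21.9%) and chromosome 15 (0.0844 to 17.2%) it included the references of 5.09, 4.61 and 2.61%. These intervals treat pairs as independent, although chromosomes 6 and 9 each had a group of 4 peaks that supplied several pairs. With peaks within 10 kb joined, chromosome 6 kept 7 pairs under 100 kb (9.46%). Under 10 kb there were 4, 2, 5 and 0 pairs, 11 in all against a reference of 1.08. This was 4.85% of pairs (2.44 to 8.50%), against 131 of 1986, or 6.60% (5.54 to 7.78%), on the other 17 chromosomes. The reference there was 19.5, so an excess of such pairs is not particular to the 4 autosomes. Under 500 bp there were 2, 1, 4 and 0, with gaps from 54 to 414 bp. Their share was 3.08% (1.25 to 6.25%), near the 3.27% (2.53 to 4.15%) on the other 17 chromosomes.

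Neighbours linked by gaps under 100 kb formed 20 groups with 45 of the 231 peaks (19.5%). On the other 17 chromosomes, 685 of 2003 peaks (34.2%) were in such groups, with up to 13 peaks in a group. A higher density by itself gives more and larger groups, and no uniform reference was calculated for them. For pairs under 100 kb the ratio to the uniform reference was 2.37 on the 4 autosomes and 2.11 on the others. On the 4 autosomes 17 of the groups were pairs, and only 3 had more members, with at most 4. The 3 larger ones are described next, each on a different chromosome, since they are the fullest local clusters on these autosomes.

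The group on chromosome 6 held 4 peaks in 96.6 kb, from 126350473 to 126447096. Their widths were 136, 310, 207 and 112 bp in order, and the gaps between them were 63448, 918 and 31493 bp. Its inner 2 peaks were therefore close neighbours and the outer 2 lay farther off. On chromosome 8 a group of 3 peaks spanned 53.8 kb, from 116289458 to 116343227, with widths of 237, 471 and 280 bp and gaps of 7723 and 45059 bp. The middle peak, chr8:116297418-116297888, was the widest on chromosome 8, and all 3 were wider than its median of 169 bp.

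On chromosome 9 the group was of another scale, with 4 peaks in 1960 bp, from 10801139 to 10803098. Their widths of 232, 147, 118 and 110 bp fell in order along the chromosome, and the gaps were 414, 54 and 885 bp. The peaks therefore covered 607 bp of the 1960 bp, and at this distance separate sites and a single enriched stretch reported in pieces cannot be told apart from positions alone. This group supplied 3 of the 6 pairs under 100 kb on chromosome 9. With it and the pairs at 15263412 to 15264253 and 98597003 to 98597623 each counted as joined within 10 kb, only 1 pair under 100 kb was left there, from 43566065 to 43654196.

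Of the groups of 2, those on chromosome 6 included chr6:28060444-28060680 with chr6:28060767-28061017, 86 bp apart, and the pair at 60150938 to 60151742, 340 bp apart, that stood in the empty middle of the chromosome. That pair had 7.71 Mb without a peak on one side and 12.3 Mb on the other. On chromosome 8 a pair opened the chromosome, chr8:14229603-14229820 and chr8:14242679-14242818, 12858 bp apart. On chromosome 15 the only pair was chr15:4454717-4455258, of 542 bp, and chr15:4530796-4530924, of 129 bp, 75537 bp apart.

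Peak widths on the 4 autosomes were much like those elsewhere. The median was 181 bp (order-statistic interval 167 to 202) with quartiles of 143 and 269 bp, against 194 bp (189 to 199) with quartiles of 138 and 267 bp on the other 17 chromosomes. These intervals overlapped and treat peaks as independent. Widths under 150 bp were held by 71 of 231 peaks (30.7%) and 629 of 2003 (31.4%), and widths over 300 bp by 41 (17.7%) and 336 (16.8%). Of the 231 peaks, 9 (3.90%, exact Clopper-Pearson interval 1.80 to 7.27%) had the smallest width in the list, 109 bp, against 91 (4.54%, 3.67 to 5.55%) elsewhere. Wider than 500 bp were 6 (2.60%, 0.959 to 5.57%) and 70 (3.49%, 2.73 to 4.39%). With few peaks and ordinary widths, the 4 autosomes had 97.7 bp of peak per Mb, against 200.9 bp on the others.

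Among the 4, median widths ran from 169 bp on chromosome 8 (interval 152 to 213) and 178 bp on chromosome 6 (157 to 214) to 198 bp on both chromosome 9 (159 to 226) and chromosome 15 (145 to 244). All 4 intervals overlapped. The median of chromosome 8 was the lowest of the 21 chromosomes, next to 170 bp on chromosome 3, while chromosome 15, the sparsest autosome, lay near the median of all chromosomes, 196.5 bp. Chromosome 8 was also the only one of the 4 with no peak wider than 500 bp and had 7 of 64 peaks (10.9%) over 300 bp. This share was 19.0% on chromosome 6, 19.4% on chromosome 15 and 22.8% on chromosome 9.

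**Figure D4:**
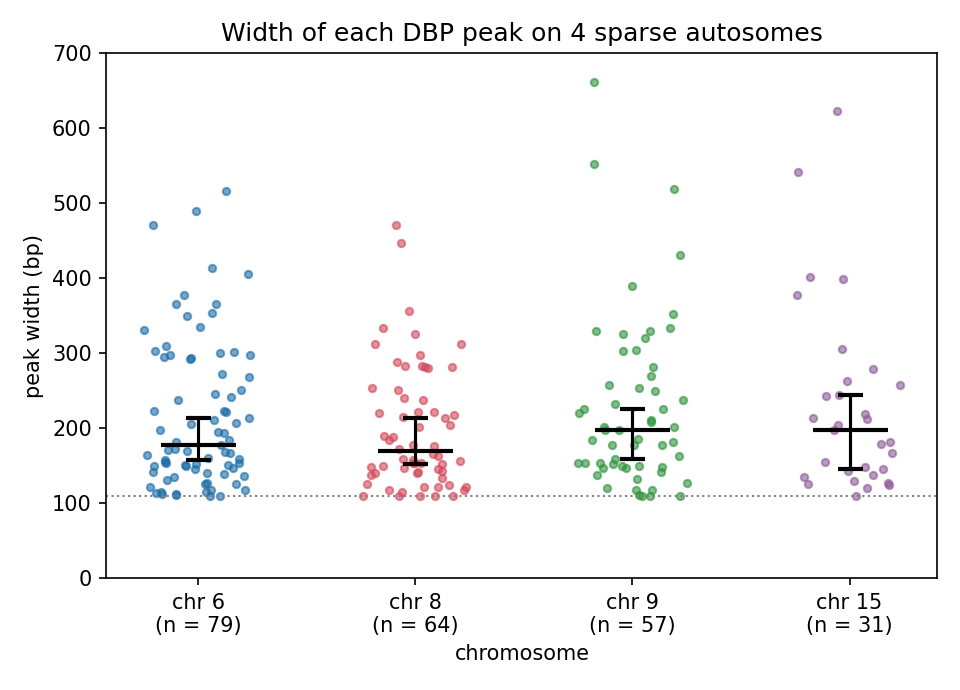
Width of each peak (y axis, bp) by chromosome (x axis), with the median as a long bar, its 95% order-statistic interval as error bars and the smallest width in the list, 109 bp, as a dotted line; horizontal scatter is for display. The intervals of the 4 medians overlap, and the widest peaks reach 661 bp on chromosome 9 and 623 bp on chromosome 15 but 471 bp on chromosome 8.

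Of the 3 widest peaks of each chromosome, 2 on chromosome 8 had a neighbour under 100 kb away, 1 each on chromosomes 6 and 15 had one, and none on chromosome 9 did. On chromosome 6 they were chr6:124176937-124177452 (516 bp), chr6:111295837-111296325 (489 bp) and chr6:138019590-138020060 (471 bp), with the nearest other peak 38.0, 119 and 598 kb away. After its 471 bp peak, chromosome 8 had chr8:28044761-28045207 (447 bp), 48.9 kb from its neighbour, and chr8:122870768-122871123 (356 bp), 2.75 Mb from it. On chromosome 9 the 3 widest, given above, lay 153, 250 and 131 kb from the nearest peak. On chromosome 15 they were chr15:48327000-48327622 (623 bp), chr15:4454717-4455258 (542 bp) and chr15:34352447-34352847 (401 bp), at 296 kb, 75.5 kb and 2.45 Mb from the nearest.

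Width did not fall steadily with isolation on these autosomes. The median was 211 bp (interval 147 to 272) for the 13 peaks with a neighbour under 500 bp away and 212.5 bp (140 to 293) for 32 with the nearest between 500 bp and 100 kb. It was 163.5 bp (153 to 197) for 122 with the nearest between 100 kb and 1 Mb, and 193 bp (171 to 244) for 64 with none within 1 Mb. On the other 17 chromosomes the same classes had medians of 216, 211, 190 and 177 bp (n = 126, 559, 1026 and 292). The most isolated peaks thus had the lowest median there, and not on the 4 autosomes, where the class from 100 kb to 1 Mb had it. The intervals of the 4 classes overlapped on the 4 autosomes. On the other 17, those of the 190 and 177 bp medians also overlapped, at 186 to 197 and 161 to 191 bp. Which class was narrowest is thus not resolved in either set, and the difference between the sets was not tested.

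The lower median of the class from 100 kb to 1 Mb was clearest on chromosome 8. Its 35 peaks with the nearest at 100 kb to 1 Mb had a median of 150 bp (interval 138 to 159), and its 16 peaks with none within 1 Mb had 218.5 bp (172 to 283). The corresponding medians were 175.5 and 157 bp on chromosome 6, 198 and 184 bp on chromosome 9, and 181 and 220.5 bp on chromosome 15, so the order was the same on chromosomes 8 and 15 and the opposite on chromosomes 6 and 9. Peaks at the edge of an empty stretch over 5 Mb, 49 on the 4 autosomes, had a median of 178 bp (153 to 221), against 181.5 bp (167 to 204) for the other 182.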

How the data were processed

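The data were the authors' deposited list of DBP peaks from 1 ChIP-seq library. Per the labels' protocols, fixed cells were digested with 3000 or 5000 gel units of micrococcal nuclease, sonicated, precipitated with 2.5 µg of antibody and read over 51 bp from both ends. The submitters' processing notes name HISAT2 2.1.0, MACS2 2.2.7, HOMER 4.11.1 and rn6. Not given in the sources used here were their settings, the threshold and any use of the input as control.

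Members were all lines of chromosomes 6, 8, 9 and 15, whose running numbers have no gaps. Members and summaries were chosen with earlier results of these data known. Starts were converted to count from 1, and width was end minus start as deposited. Peaks named by position were the 3 widest, the first and last, those bounding the 2 longest empty stretches and those in groups of 3 or more on each chromosome. Others named, such as close pairs and peaks in sparse runs, were chosen after their values were seen. References for uniform placement were closed-form values from Dirichlet spacings, checked on simulated points, and no p-value was computed. Intervals are at 95%. Python 3.11.15, NumPy 2.4.6, SciPy 1.17.1 and Matplotlib 3.10.9 were used. Gene and motif results, which need rn6 annotation or sequence, were not computed, because the reference tables at hand are of another build.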

Additional observations from a re-analysis of the deposited data

How the results depend on the processing

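Density, the longest empty stretch, the share of pairs under 100 kb and the median width were recomputed on each of the 4 chromosomes, 76 values in all. Of these, 59 stayed within the 95% interval of the value given or, for stretches, within 1 mean spacing of it. Several outcomes were fixed by the setting, so this count is no measure of robustness. Joining close peaks could not change a longest stretch, and keeping only wide peaks had to lower density and raise median width. Distances between midpoints left every share of pairs under 100 kb unchanged. Keeping only peaks wider than the list's median of 193 bp, which leaves 107 of the 231 by construction, gave 0.261, 0.196, 0.246 and 0.144 peaks per Mb on chromosomes 6, 8, 9 and 15. Longest stretches then became 18.9, 24.0, 16.0 and 24.7 Mb, and median widths 296.5, 280.5, 270 and 260.5 bp. The share of pairs under 100 kb fell to 3.57% on chromosome 9 and 0% on chromosome 15. On chromosome 9 it was also 3.85% with peaks within 500 bp joined and 1.96% within 10 kb. With the start included, the longest stretch of chromosome 8 became 14.2 Mb. In each of 4 changed lists the 4 chromosomes were the sparsest autosomes, with chromosomes 8 and 9 exchanging places in both joined lists. With peaks within 500 bp joined, pairs under 100 kb stood at 1.82 times the uniform reference on the 4 autosomes and 1.88 times on the others, and with those within 10 kb joined at 1.47 and 1.61 times. The joined lists hold no pair under the joining distance, but their references still count such spacings, which lowers these ratios. Since depth and threshold are unknown, an empty stretch may hold weaker sites that were not listed. No paired analysis was possible because there is 1 library in each group.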

Other observations

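The 9 peaks of the smallest width, 109 bp, were spread over the 4 autosomes, with 4 on chromosome 8, 2 each on chromosomes 6 and 9 and 1 on chromosome 15. On chromosome 8, chr8:22261511-22261619 lay in its fullest 5 Mb window and chr8:27995786-27995894 lay 48.9 kb from the second widest peak of that chromosome, of 447 bp. On chromosome 9, chr9:20409971-20410079 was the last peak before the 6.72 Mb stretch that follows the dense part, and on chromosome 15 chr15:106914856-106914964 was the second last peak.

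Chromosome X was the only chromosome sparser than chromosome 15. Neighbouring pairs under 100 kb were 7 of 35 on it (20.0%, exact Clopper-Pearson interval 8.44 to 36.9%) and 1 of 30 on chromosome 15 (3.33%, 0.0844 to 17.2%). These intervals overlapped, and the difference was not tested. Stretches over 5 Mb took up 79.2% of the length of chromosome X and 60.5% of that of chromosome 15, and the longest were 1.32 and 1.31 times their uniform references.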
